A study of Mus musculus with 2 samples.

Results

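The genes of the nuclear pore and of nuclear transport were followed in nuclear RNA of mouse macrophages. Members were the protein-coding genes whose symbol is Nup, Xpo, Ipo, Kpna or Nxf followed by a digit, or Kpnb1, Tpr, Ndc1 or Ran. There were 47 such genes among 22028 protein-coding genes of the annotation, on 17 chromosomes, with 4 of them on the X chromosome. The cells were macrophages of the C57BL/6J mouse strain, which are phagocytes grown in culture from bone marrow. They were pre-treated with lipid A, the membrane-anchoring part of bacterial endotoxin, at 100 ng/ml for 12 h, kept without it for 12 h, and given 100 ng/ml again for 50 min. Total RNA of the nucleoplasmic fraction, which the labels also call nuclear, was depleted of ribosomal RNA and sequenced in 1 group of 2 libraries, biological replicates 1 and 2.

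Both libraries carry the same donor entry, and the labels name no separate animals, so the spread between them may be technical. RNA input was 500 ng for replicate 1 and 1 µg for replicate 2, so that replicate and input cannot be told apart. No untreated, singly treated or whole-cell library was analysed here, and each level describes restimulated nuclei only. The libraries held 20612078 and 22772081 expected counts over genes in replicates 1 and 2. The members took 46664 counts (0.226%) and 45084 counts (0.198%) of these. All 12 macrophage markers examined were above the median protein-coding gene. Markers of T cells, B cells, natural killer cells, neutrophils, mast cells and basophils, erythroid cells, fibroblasts, endothelium and dendritic cells summed to at most 1.63 TPM per list and library in the gene-level table (TPM is a read count divided by effective length and scaled to the same total in every library). A second quantification, the index-based transcript table, gave Pecam1 of endothelium 6.75 and 0.70 TPM in replicates 1 and 2. There Cd3d of T cells had 2.88 and 0.62 TPM, and each other marker of these lists had at most 0.424 TPM.

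A nuclear pore is a channel through the nuclear envelope. Its outer rings are built from Y-shaped complexes, and its inner ring carries proteins with phenylalanine-glycine repeats that fill the channel. Importins bind cargo in the cytoplasm and release it in the nucleus when they meet Ran charged with GTP, and exportins bind cargo together with Ran-GTP in the nucleus. Messenger RNA leaves by another route, carried mainly by the heterodimer of Nxf1 and Nxt1, which does not need Ran. In macrophages signalling through Toll-like receptor 4, the NF-kB subunits that enter the nucleus do so with importin alpha adaptors, among them, as known from human cells, the products of Kpna3 and Kpna4.

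Most members were measured at moderate levels, with 1 gene, Nxf1, well above the others in both libraries. Of the 47, 42 had 10 or more counts over both libraries and 36 had 100 or more counts in each. The median over the 42 was 4.49 TPM, against 3.59 TPM over 12140 protein-coding genes that met the same count minimum. By role, the medians were 9.23 TPM for the central channel, 15.1 TPM for the cytoplasmic side and 12.3 TPM for the basket, while those of the members in the pore's frame were lower, at 1.59 TPM for the Y complex, 3.12 TPM for the inner ring and 0.57 TPM for the transmembrane group. These medians depend on the symbol rule and the roles. Nup98, placed on the cytoplasmic side, also encodes Nup96 of the Y complex. Outside the rule fell Sec13 of the Y complex, at a mean of 11.5 TPM. So did Tmem33 (8.685 TPM), Ahctf1 (7.315), Seh1l (3.905), Rae1 (3.775), Pom121 (3.315), Aaas (1.7), Gle1 (1.605) and Ranbp2 (70.46). The genes of Nup42 and Nup58, at 0.82 and 0.025 TPM, fell outside the rule as well. Medians with these genes were not taken, so the lower levels of the frame are those of the members alone. Above the median protein-coding gene stood 27 members, and above the 90 percentile (28.7 TPM) stood Nxf1 and Tpr. Such counts depend on the genes set beside the members: 17 were above the median when that set was limited to genes whose counts summed to 100 or more, and 41 when it had no minimum. Over the 42 members the levels of the libraries had a Spearman rho of 0.975, as a description across genes that share both libraries.

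**Figure D1:**
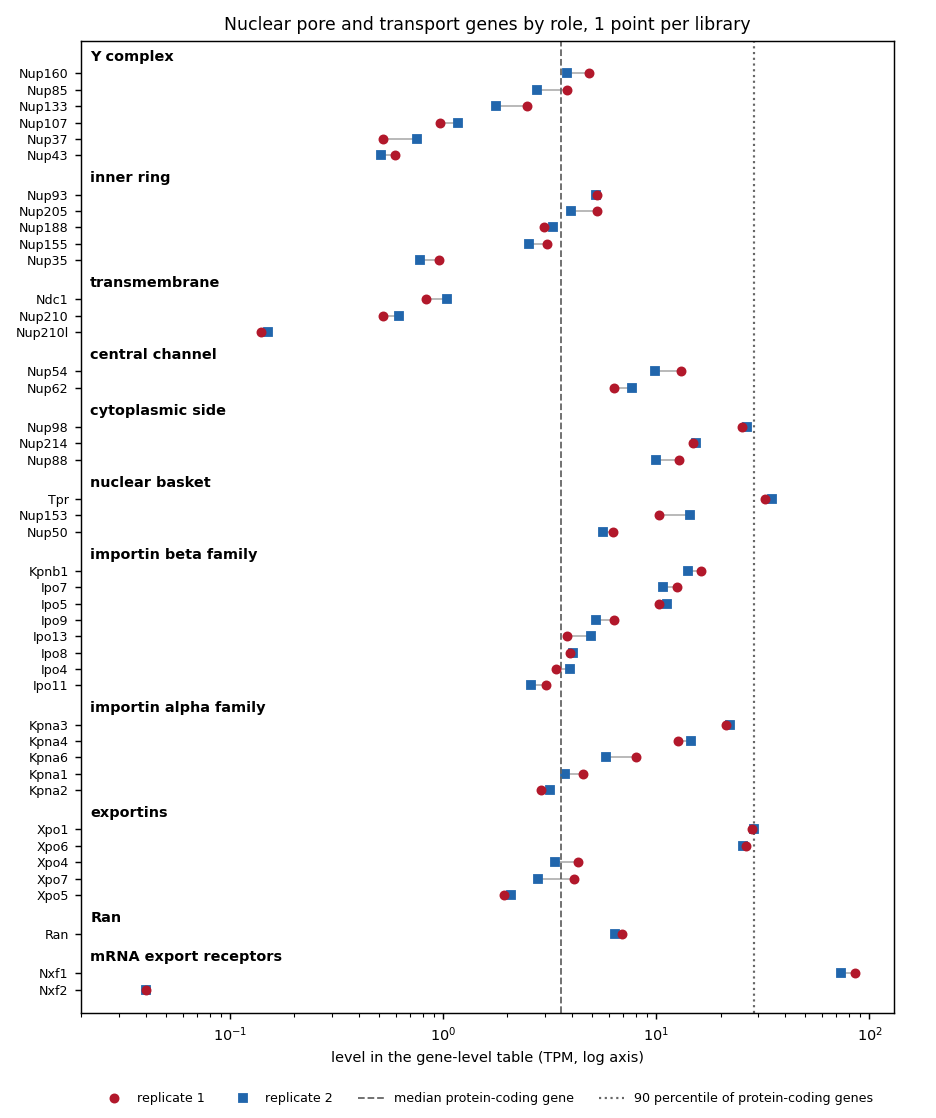
Level of each member with at least 1 count, in TPM on a log axis, grouped by role, with a circle for replicate 1 and a square for replicate 2. The dashed line is the median protein-coding gene (3.59 TPM) and the dotted line the 90 percentile (28.7 TPM). Members of the Y complex and the transmembrane group lie mostly left of the dashed line, and Nxf1 lies far to the right of all others.

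Among the 6 members of the Y complex, which forms the outer rings of the pore, Nup160 alone had a mean above the median protein-coding gene, at 4.85 TPM in replicate 1 and 3.79 TPM in replicate 2. With transcripts of 1000 or more bases alone, the mean of Nup160 was 2.455 TPM. That is below the median of 2.545 TPM for protein-coding genes taken likewise. Nup85 had 3.79 and 2.76 TPM in replicates 1 and 2, and Nup133 had 2.46 and 1.77 TPM. Both thus lay below Nup160 by TPM in each library. The deposited confidence bounds of Nup85 overlapped those of Nup160 in both libraries, so the order of these genes was not settled. The bounds of Nup133 lay below those of Nup160 in both libraries. Nup107, Nup43 and Nup37 of the same complex ranged from 0.51 to 1.17 TPM, and the last 2 had between 16 and 25 counts per library. In the inner ring, which ties the outer rings to the membrane and to the channel, Nup93 was the highest of 5 genes by mean level. It had 5.26 TPM in replicate 1 and 5.23 TPM in replicate 2. Nup205 had 5.28 and 3.96 TPM in replicates 1 and 2, so that Nup93 and Nup205 could not be put in order beyond their spread. Nup188 followed with 2.96 and 3.28 TPM, and Nup155 with 3.06 and 2.52 TPM, in ranges that overlapped. Nup35, the membrane-binding subunit of this ring, was the lowest with 0.95 and 0.78 TPM from 31 and 36 counts, and it shares 131 exon bases on its own strand with Dusp19.

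All 3 transmembrane members were below the median protein-coding gene. Ndc1, which anchors the pore in the envelope, had 0.83 TPM in replicate 1 and 1.04 TPM in replicate 2. Nup210 had 0.52 and 0.62 TPM in replicates 1 and 2, and its paralog Nup210l had 0.14 and 0.15 TPM from 25 and 28 counts. The libraries kept the order of the 3 genes by TPM. The deposited confidence bounds of Ndc1 were 0.80 and 1.58 TPM in replicate 1 and 0.93 and 1.85 TPM in replicate 2. Those of Nup210 were 0.77 and 2.05 TPM in replicate 1 and 0.70 and 2.13 TPM in replicate 2. The TPM of Nup210 itself lay below its own bounds in both libraries, so the bounds are not centred on the deposited TPM. The bounds of Nup210 overlapped those of Ndc1, so the order of these genes was not settled. The bounds of Nup210l lay below both.

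Members of the channel and of both faces of the pore were higher, and all 8 that had counts were above the median protein-coding gene. Nup54, a repeat protein of the central channel, had 13.05 TPM in replicate 1 and 9.88 TPM in replicate 2. Nup62, which binds it in the channel, had 6.32 and 7.66 TPM in replicates 1 and 2, below Nup54 in each library. Short models weigh on this order: with transcripts of 1000 or more bases alone, Nup62 had 6.32 and 7.67 TPM and Nup54 7.39 and 5.38 TPM in replicates 1 and 2, so that Nup62 was the higher one in replicate 2. Nup62 also shares 97 exon bases on its strand with Il4i1 and 82 bases with Atf5 on the opposite strand, and no source used here says whether counting used strand. Nup62cl, an X-linked gene of the same group, had 0 counts in both libraries, which at 3 counts allows up to 0.146 and 0.132 CPM (counts scaled to the library total) in replicates 1 and 2.

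On the cytoplasmic side, Nup98 had 25.12 TPM in replicate 1 and 26.6 TPM in replicate 2. Nup214, a docking site for the exportin Xpo1, had 14.91 and 15.36 TPM in replicates 1 and 2. Its partner Nup88 had 12.83 and 10 TPM. The order of these 3 genes was the same in both libraries. With transcripts of 1000 or more bases alone, however, Nup88 had 10.37 and 8.17 TPM in replicates 1 and 2 and stood above Nup214, which had 8.57 and 7.29 TPM. In the nuclear basket, Tpr, which builds the filaments of the basket, had 32.37 TPM in replicate 1 and 35.0 TPM in replicate 2, with 4144 and 4280 counts. Nup153, which holds Tpr at the pore, had 10.33 and 14.3 TPM in replicates 1 and 2, and Nup50, which helps to release importin alpha cargo, had 6.24 and 5.6 TPM. Tpr was the highest of the basket genes and Nup50 the lowest in both libraries.

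Nup98 has the further feature that its longest transcript encodes a precursor cut into Nup98 and Nup96, a subunit of the Y complex. This transcript, Nup98-203, has a coding sequence of 5448 bases. It held 2098 expected counts in replicate 1 and 2375 in replicate 2, which is 56.8% and 58.5% of the gene's counts. The 4 other coding transcripts with 30 or more counts in each library have coding sequences of 2901 to 3561 bases, and each held at most 8.52% of the counts. Most of the gene's counts were thus assigned to the precursor transcript in each library. Reads in exons that several of these transcripts share are divided between them by the quantification.

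Among the import receptors, 7 of 8 members of the importin beta family were above the median protein-coding gene. Kpnb1, importin beta 1 itself and the carrier of the importin alpha adaptors, was highest with 16.27 TPM in replicate 1 and 14.14 TPM in replicate 2. Ipo7 had 12.52 and 10.74 TPM in replicates 1 and 2, and Ipo5 had 10.26 and 11.26 TPM; both carry ribosomal proteins among other cargo. The ranges of Ipo7 and Ipo5 overlapped, and Kpnb1 was above both in each library. With transcripts of 1000 or more bases alone it had 13.19 TPM in replicate 1 and 10.39 TPM in replicate 2, below both in replicate 2. Ipo9, Ipo13, Ipo8, Ipo4 and Ipo11 followed at means between 2.8 and 5.755 TPM. Ipo4 is uncertain: 55.3% of its exon bases are shared with Gm49378 on the same strand.

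The importin alpha adaptors bind the classical nuclear localisation signal. Kpna3 had 21.21 TPM in replicate 1 and 22.16 TPM in replicate 2, the highest of the family. Kpna4 had 12.6 and 14.51 TPM in replicates 1 and 2, and Kpna6 had 7.99 and 5.79 TPM. The order of the 3 was the same in both libraries, with no overlap. Kpna1 and Kpna2 were lower, at means of 4.13 and 3.02 TPM. Kpna2 has a processed pseudogene, Kpna2-ps, to which 0 and 40 counts were assigned in replicates 1 and 2, and the deposited posterior standard deviation of the Kpna2 count was 6.69% and 4.28% of that count. Kpna7, known in mouse from oocytes and early embryos, had 0 counts in both libraries.

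The exportins fell into a high pair and a low group of 3. Xpo1, which exports proteins with a leucine-rich signal and many RNAs, had 27.96 TPM in replicate 1 and 28.82 TPM in replicate 2. Xpo6, the exporter of actin, had 26.36 and 25.59 TPM in replicates 1 and 2. Xpo4 had 4.28 and 3.35 TPM, and Xpo7 and Xpo5, the last an exporter of microRNA precursors, had means of 3.45 and 2 TPM. Xpo1 and Xpo6 were both above every other exportin in each library. Ran, the GTPase that gives transport its direction, had 6.88 TPM in replicate 1 and 6.37 TPM in replicate 2, within the range of the import receptors.

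The mRNA export receptors held the highest member and 3 with at most 2 counts per library. Nxf1 had 85.77 TPM in replicate 1 and 73.29 TPM in replicate 2, from 5230 and 4512 counts. The deposited confidence bounds of its TPM were 78.2 and 89.9 in replicate 1 and 66.8 and 77.1 in replicate 2. Its level was thus over any other member's by a wide margin in each library, and it also ranked first of the members by counts per library and in the index-based transcript table, a second quantification made from the reads. The X-linked paralogs were close to absent: Nxf2 had 2 counts in each library, and Nxf3 and Nxf7 had 0 in both.

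Short transcript models weigh on these levels. Transcripts under 1000 bases held 25.6% of the members' TPM in replicate 1 and 26.3% in replicate 2, on 3.01% and 3.12% of their counts. Over all protein-coding genes such transcripts held 27.7% and 26.8% of TPM. For Nxf1 they held 52.8% and 51.8%, and for Tpr 45.2% and 50.1%, in replicates 1 and 2. Tpr owes much of this to Tpr-202, a model of 575 bases that took 33.8% and 33.7% of the gene's TPM on 130 and 156 counts. With transcripts of 1000 or more bases alone, chosen after seeing the data, Nxf1 had 40.5 TPM in replicate 1 and 35.3 TPM in replicate 2 and was still the highest member. Tpr then had 17.75 and 17.45 TPM in replicates 1 and 2 and ranked 6 among the members, after Nxf1, Xpo1, Nup98, Kpna3 and Xpo6.

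Nxf1 was also the member with the most reads in a transcript that keeps an intron. Its coding transcript Nxf1-201 has 21 exons and a coding sequence of 1854 bases. Nxf1-209 differs from it mainly by keeping intron 10, which lies at chr19:8765032-8766796 on the plus strand of mm10 and is 1765 bases long. As background, this intron is known to hold a constitutive transport element, an RNA structure that Nxf1 protein binds and that lets the unspliced RNA leave the nucleus. The sequences at both ends of the intron are shown because they are the junctions that splicing would use. They come from the annotated transcripts of the same build, 5′ to 3′, with 12 exon and 18 intron bases at each junction and the first and last pairs of intron bases in capitals.
Nxf1 intron 10, start (chr19:8765020-8765049, plus strand): cagctatatcagGTcagttgtagcctctgt
Nxf1 intron 10, end (chr19:8766779-8766808, plus strand): ctgtcccgttcttgacAGcgccattcgcga

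In Nxf1-209 the reading frame runs on from exon 10 into the kept intron for 241 bases and then meets a stop. Its coding sequence is 1254 bases, or 418 codons, against 618 codons in Nxf1-201. The stretch from the start of the intron to the stop is shown because it is coding sequence that Nxf1-209 has and Nxf1-201 lacks, with the first pair of intron bases and the stop codon in capitals.
Nxf1 intron 10, coding stretch and stop of Nxf1-209 (chr19:8765032-8765275, plus strand): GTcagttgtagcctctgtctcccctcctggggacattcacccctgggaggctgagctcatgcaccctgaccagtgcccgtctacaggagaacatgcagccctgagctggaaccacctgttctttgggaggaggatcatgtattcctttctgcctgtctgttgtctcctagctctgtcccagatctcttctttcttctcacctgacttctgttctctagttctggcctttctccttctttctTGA
The annotation classes Nxf1-209 as protein-coding, so it is not among the transcripts annotated as retained introns.

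Most Nxf1 reads were assigned to the transcript that keeps the intron. Nxf1-209 held 4348 expected counts in replicate 1 and 3572 in replicate 2, which is 83.1% and 79.2% of the counts of the gene. Nxf1-201 held 434 and 597 counts in replicates 1 and 2, or 8.29% and 13.2%. Taking only transcripts that keep or splice intron 10, those that keep it held 84.7% of TPM in replicate 1 and 76.8% in replicate 2. By expected counts these shares were 90.9% and 85.7%, and in the index-based table they were 67.9% of TPM in both replicate 1 and replicate 2. The share was over 50% in each library by each of these measures, and the tables differed by more than the libraries did. A read inside an exon that both transcripts have is divided between them by the quantification, and reads across the junctions were not analysed here. In total RNA of the nucleus, a transcript that keeps the intron and precursor RNA not yet spliced cannot be told apart by these values.

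**Figure D2:**
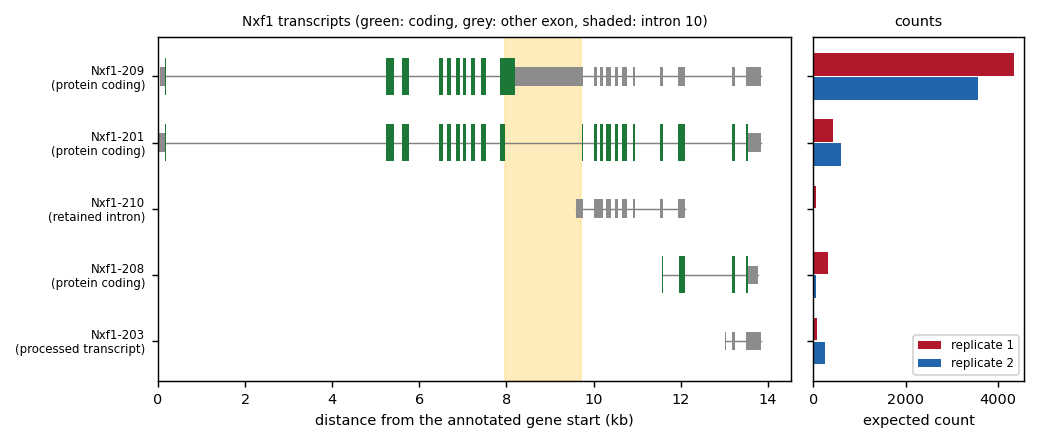
Left, exons of the Nxf1 transcripts with 50 or more expected counts in at least 1 library, by distance in kb from the annotated start of the gene, with coding bases in green, other exon bases in grey and intron 10 shaded. Right, expected counts in replicate 1 and replicate 2. Nxf1-209, which keeps the intron, holds 4348 and 3572 counts, and Nxf1-201, which splices it, 434 and 597.

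Nxf1-208 and Nxf1-203, short models of the gene, lie outside intron 10, and they traded TPM between the libraries. A further short model, Nxf1-210 of 927 bases, starts inside the intron and was counted neither as keeping nor as splicing it. Nxf1-208, of 505 bases at the 3′ end, had 32.23 TPM in replicate 1 and 5.39 TPM in replicate 2. Nxf1-203, of 431 bases, had 10.12 and 31.7 TPM in replicates 1 and 2. Their sum was 42.3 TPM in replicate 1 and 37.1 TPM in replicate 2, close to what Nxf1-209 and Nxf1-201 held together.

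Introns of the other members were examined in the same way, an analysis added after seeing the data. For them too, kept introns and precursor RNA not yet spliced cannot be told apart. For 36 members with 100 or more counts in each library, 825 introns were taken from the transcript with the longest coding sequence. The annotation holds a transcript that keeps 33 of these introns, in 16 genes. In 5 genes, Nxf1, Nup88, Ipo7, Xpo6 and Tpr, such transcripts had 50 or more counts in each library, which is 13.9% of the 36 genes, against 19.6% of 7711 protein-coding genes. Nxf1 alone had an intron kept in more than 50% of TPM in both libraries, or 2.78% of the members against 2.74% of the protein-coding genes. The share of members with such an intron was thus near that of the background.

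Nup88 came next. Its introns 11 to 15 were kept in 17.8% to 32.5% of TPM in replicate 1 and in 24.8% to 37.0% in replicate 2. Intron 11 lies at chr11:70944986-70945202 on the minus strand and is 217 bases long, and its ends are shown for comparison with those of Nxf1, with the same capitals.
Nup88 intron 11, start (chr11:70945185-70945214, minus strand): agcatttctcaaGTaggaaatttagggcat
Nup88 intron 11, end (chr11:70944974-70945003, minus strand): taatgagaataatgacAGaaactgttctgc
The transcripts that keep this intron held 30.6% of TPM in replicate 1 and 34.0% in replicate 2. Nup88-204, with 2 exons, held most of their reads, at 134 and 148 counts. Both introns begin with GT and end with AG. The kept introns of Ipo7, Xpo6 and Tpr held between 3.70% and 17.6% of TPM. Intron 12 of Ipo7 was the highest of these with 9.55% in replicate 1 and 17.6% in replicate 2.

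**Figure D3:**
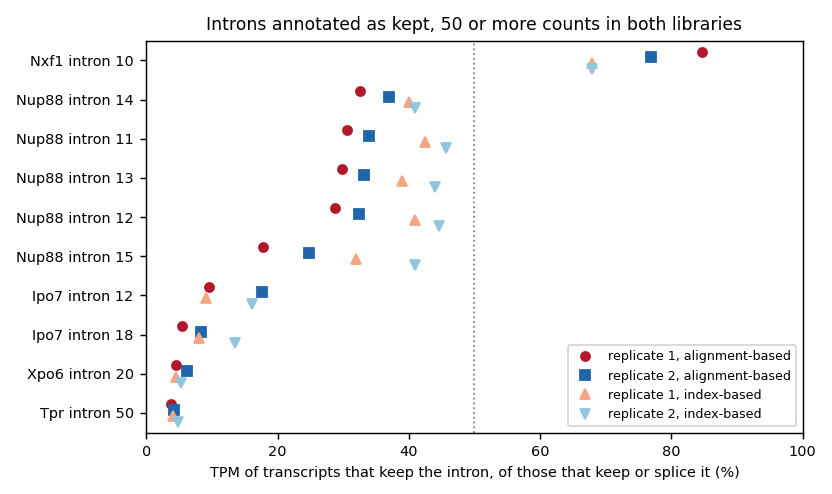
Share of TPM in transcripts that keep an intron, among transcripts that keep or splice it, for the 10 introns whose keeping transcripts had 50 or more expected counts in both libraries. Circles and squares are replicates 1 and 2 in the alignment-based table, and triangles pointing up and down are replicates 1 and 2 in the index-based table. Nxf1 intron 10 alone is over 50%, and the introns of Nup88 lie between 17.8% and 45.7%.

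Several members had more than 1 abundant coding model, and for Tpr and Kpna4 the quantifications divided the reads of such models differently. Tpr-201 held 2940 counts in replicate 1 and 2208 in replicate 2, and Tpr-203 held 874 and 1665 counts in replicates 1 and 2. In the index-based table the order of the pair was turned round, with 1588 and 1489 counts for Tpr-201 and 4322 and 3319 counts for Tpr-203 in replicates 1 and 2. Which of these models prevailed was thus not settled. Kpna4-201, a transcript of 8819 bases, held 1859 counts in replicate 1 and 1714 in replicate 2, and the shorter Kpna4-203, of 3726 bases, held 707 and 1031. In the index-based table Kpna4-201 had 2403 and 1670 counts and Kpna4-203 had 1598 and 1712 counts in replicates 1 and 2, so that their order was turned round in replicate 2. For Ran, Ran-201 held 94.7% of counts in replicate 1 and 79.5% in replicate 2, and both of its main transcripts have the same coding length of 648 bases.

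Transcripts were then summed by their annotated class, first in the alignment-based table. The median share of a member's TPM in transcripts annotated as protein-coding was 81.2% in replicate 1 and 72.8% in replicate 2 over the 36 members, and over 7841 protein-coding genes it was 80.7% and 78.2%. In the index-based table the members were lower than these genes, with medians of 63.1% and 58.6% for the members in replicates 1 and 2, and 69.1% and 67.1% for the protein-coding genes. By counts instead of TPM the median was 94.3% and 93.7% for the members in replicates 1 and 2, and 92.1% and 91.0% for the protein-coding genes. In 6 of 36 members (16.7%) protein-coding transcripts held under 50% of TPM, against 16.9% of the protein-coding genes. In the index-based table these shares were 36.1% of the members and 27.8% of the protein-coding genes. By counts no member was under 50%, against 10.6% of the protein-coding genes. Transcripts classed as retained introns had a median of 10.6% of the members' TPM in replicate 1 and 15.0% in replicate 2, and of 8.64% and 10.9% over the protein-coding genes.

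The lowest coding shares came from different classes of transcript. Nup133 had 24.0% of its TPM in protein-coding transcripts in replicate 1 and 45.8% in replicate 2, with the remainder in 1 retained-intron and 1 processed transcript. This wide spread came with 192 and 210 counts in replicates 1 and 2. Nup88 had 42.4% and 44.2% in replicates 1 and 2, and its retained-intron transcripts held 55.1% and 51.9% of TPM and 43.1% and 42.5% of counts. It had the highest retained-intron share of the members. Ipo9 had 46.1% and 47.1% in protein-coding transcripts, and Ipo4 had 46.9% and 34.5%, in replicates 1 and 2. Xpo6 had 39.2% and 42.8%, with nonsense-mediated-decay transcripts, which carry an early stop, at 29.3% and 20.0% of its TPM. Most of that was Xpo6-219, a model of 938 bases with 156 and 109 counts in replicates 1 and 2. For Nup160 and Nup85 the annotation holds no retained-intron transcript, and processed transcripts held 53.9% and 49.9% of TPM for Nup160 in replicates 1 and 2. For Nup85 they held 55.5% and 38.8%. Ndc1, Nup54 and Nup153 followed with mean coding shares of 55.0%, 56.2% and 62.6%. The mean of Ndc1 describes neither library, as its coding share was 37.8% in replicate 1 and 72.1% in replicate 2. Its nonsense-mediated-decay transcripts held 62.2% and 9.62% of TPM, on 115 and 118 counts of the gene in replicates 1 and 2. The coding share was 57.9% and 54.5% for Nup54, and 70.9% and 54.3% for Nup153, in replicates 1 and 2. For Kpna4, Nup50 and Nup62 the annotation holds protein-coding transcripts alone, so that no share other than 100% was possible. Ran also has a processed transcript. Its coding share was 100% in both libraries of the alignment-based table, and in the index-based table it was 86.1% in replicate 1 and 59.97% in replicate 2.

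**Figure D4:**
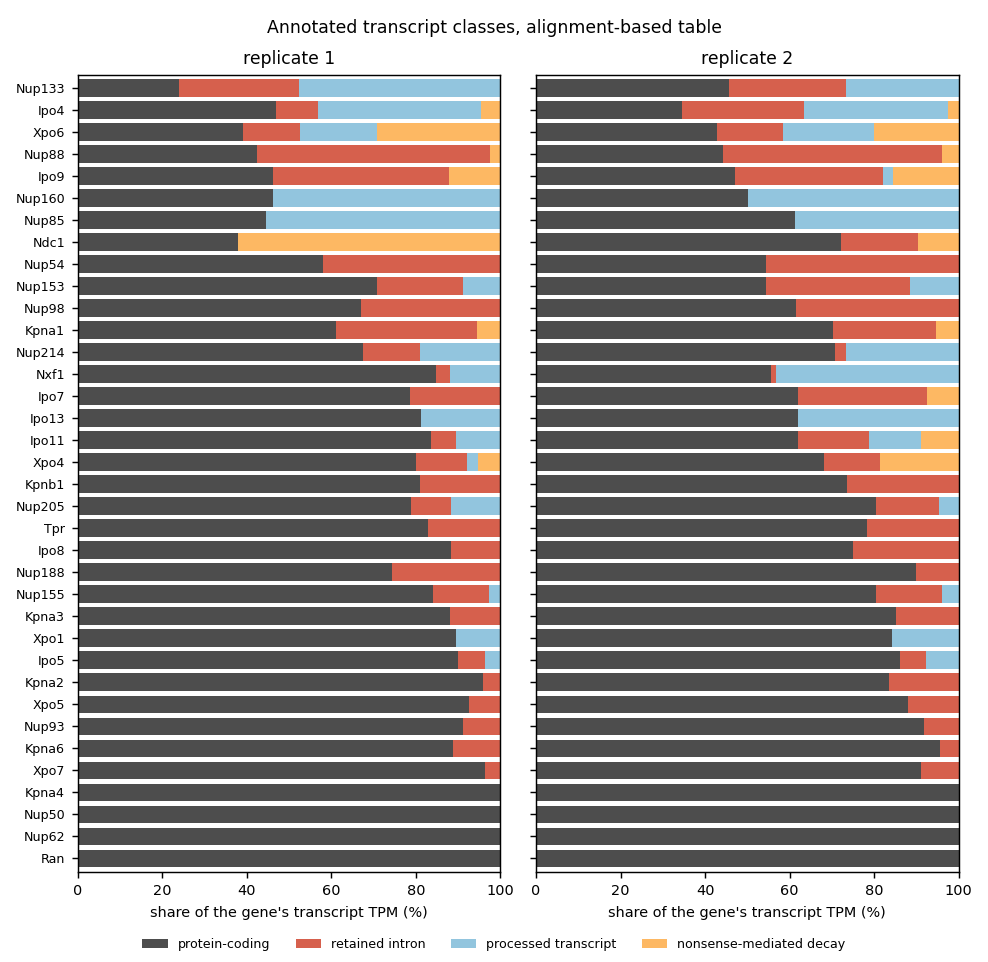
Share of each gene's transcript TPM by annotated class in replicate 1 (left) and replicate 2 (right), for the 36 members with 100 or more counts in both libraries, ordered by mean protein-coding share. Nup88 shows the longest retained-intron bars (55.1% and 51.9%), Xpo6 has long nonsense-mediated-decay bars in both libraries (29.3% and 20.0%), and the full bars of Kpna4, Nup50 and Nup62 are of genes with no transcript of another class in the annotation.

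The libraries were then compared with each other. Each gene's counts in replicate 1 and replicate 2 were set against the scaled library sizes in a two-sided exact binomial test, adjusted by Benjamini-Hochberg over 16140 genes; the test compares these 2 libraries and covers counting error only. No member passed at an adjusted p under 0.05 with a difference of 2-fold or more, whereas 6.65% of all genes did. Among protein-coding genes with 100 or more counts in each library 1.43% passed, and a count of 0 among 36 members is near that background. An edgeR exact test with a preset dispersion of 0.01 or 0.04 also called 0 members, against 741 and 196 of the 16140 genes. At an unadjusted p under 0.05 there were 19 of 42 members, against 45% of all genes.

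Without a fold minimum, 16 of the 42 members had an adjusted p under 0.05, against 38.8% of all genes, and against 55.1% of protein-coding genes with 100 or more counts in each library; members with as many counts reached 44.4%. Of these 16, 15 were higher in replicate 1, and Nup62 was higher in replicate 2; an adjusted p under 0.05 with a higher value in replicate 1 was found for 19% of all genes and 29.9% of the better-counted protein-coding genes, and with a higher value in replicate 2 for 19.7% of all genes. With TMM scaling, the main one here, no member differed by as much as 1.5-fold. With library totals 2 did, Ipo11 (log2 ratio 0.65) and Xpo4 (0.61). Among these better-counted members, the median absolute log2 ratio was 0.12, and over 7845 such protein-coding genes it was 0.23. The 42 log2 ratios of replicate 1 over replicate 2 had a median of 0.09, and 27 of them were above 0, against 49.5% of all genes. Of the 36 better-counted members 24 were above 0, with a median of 0.11, against 54.7% of the protein-coding genes with as many counts, whose median was 0.04. The number of 27 was 36 with library totals as the scale and 22 in the index-based table.

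Members with 100 or more counts in each library are given first, by the size of their ratio. Ipo11 had 370 counts in replicate 1 and 261 in replicate 2, a log2 ratio of 0.57 (95% exact interval 0.34 to 0.80). Xpo4 had 1002 and 725 counts in replicates 1 and 2, a log2 ratio of 0.53 (0.39 to 0.67). For Xpo7 there were 738 and 553 counts in replicates 1 and 2, a log2 ratio of 0.48 (0.32 to 0.64). For Nup205 they were 979 and 746, a log2 ratio of 0.46 (0.32 to 0.60), and for Nup54 596 and 463, a log2 ratio of 0.43 (0.25 to 0.61). Nup62 had 488 counts in replicate 1 and 619 in replicate 2, a log2 ratio of -0.28 (-0.45 to -0.10). Nup37, with 16 counts in replicate 1 and 25 in replicate 2, had a log2 ratio of -0.56, but its interval of -1.58 to 0.38 held 0. By contrast Tpr, Xpo1, Nup98 and Xpo6 had log2 ratios between -0.07 and 0.02.

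**Figure D5:**
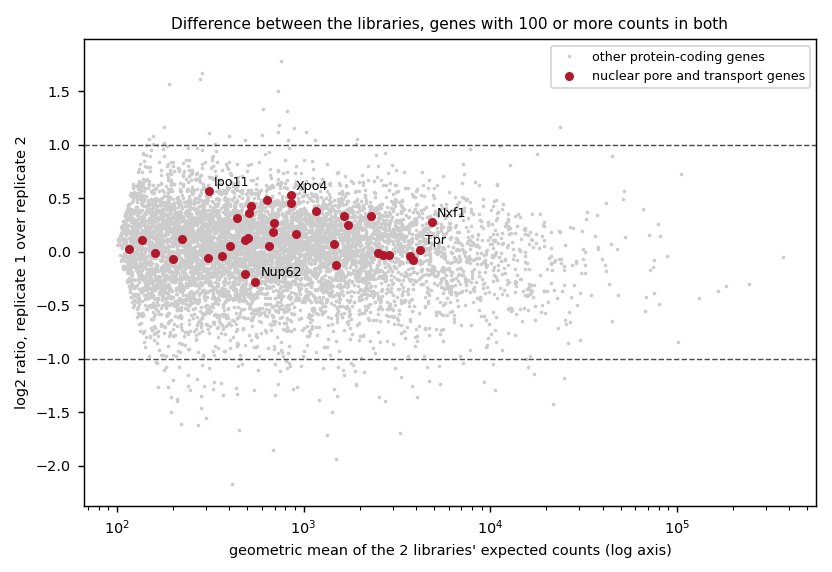
Log2 ratio of replicate 1 over replicate 2 against the geometric mean of the libraries' counts, on a log axis, for protein-coding genes with 100 or more counts in both. Members are in red and other genes in grey, and dashed lines mark 2-fold. The members lie between -0.28 and 0.57.

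Markers of other states differed between the libraries as well. Of 10 proliferation markers, 9 had a log2 ratio above 0, with a median of 0.68. The list summed to 50.4 TPM in replicate 1 and 41.0 TPM in replicate 2. Mki67 alone held 41.71 and 35.07 TPM of these sums, at a log2 ratio of 0.24. Top2a had 409 and 266 counts in replicates 1 and 2, and each other marker had at most 59 counts per library. Among the latter, Ccna2 and Cenpf had an adjusted p of 0.0050 and 0.0078 in the binomial test. For Aurkb, Birc5, Bub1, Ccnb1, Cdk1 and Plk1 it was 0.12 or more, so their direction was not settled. Of 12 macrophage markers 2 had a ratio above 0, with a median of -0.43, and the list summed to 3083 TPM in replicate 1 and 3544 TPM in replicate 2. Their part in the members' differences was not tested. In such bulk RNA, fewer cells of a type and less RNA per cell cannot be told apart.

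Genes of the same pathways whose symbols fall outside the rule were examined from fixed lists. Of 41 such genes, 40 were in the annotation, 20 were above the median protein-coding gene, and 2 were above the 90 percentile. These were Ranbp2, a very large protein of the cytoplasmic filaments, and Ddx39b, a helicase that loads export factors onto mRNA. Ranbp2 had 72.3 TPM in replicate 1 and 68.62 TPM in replicate 2, from 19316 and 19490 counts. Ddx39b had 79.6 and 78.11 TPM in replicates 1 and 2. Ddx39b was below Nxf1 in replicate 1 and above it in replicate 2, and Ddx39b and Ranbp2 were above every member other than Nxf1. In the index-based table both were above Nxf1 in each library. There Ddx39b had 43.4 and 20.3 TPM, Ranbp2 43.6 and 19.7 TPM, and Nxf1 36.0 and 12.8 TPM in replicates 1 and 2.

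Of 9 pore proteins outside the rule 6 were above the median protein-coding gene, and after Ranbp2 the highest were Sec13, a subunit of the Y complex, and Tmem33, at means of 11.5 and 8.69 TPM. Of 10 further transport receptors 5 were above it. Tnpo3, which imports serine-arginine-rich splicing factors, had a mean of 13.6 TPM. Xpot, the exporter of transfer RNA, had a mean of 13.5 TPM, and Tnpo1 a mean of 9.66 TPM. In the Ran cycle 3 of 5 genes were above the median, Ranbp3, Ranbp1 and the GTPase activator Rangap1, at means between 6.295 and 7.96 TPM. For mRNA export the number was 6 of 17, and after Ddx39b the THO subunits Thoc2 and Thoc1 were highest at means of 28.2 and 18.2 TPM.

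Among these genes 2 passed the 2-fold call between the libraries, and both are named here after their values were seen. They were 1 of 16 mRNA export genes tested and 1 of 9 transport receptors tested. Of the 9 pore proteins and 4 Ran cycle genes tested 0 passed, and of all genes 6.65% did. Nxt1, the partner of Nxf1, had 18 counts in replicate 1 and 39 in replicate 2, at 0.70 and 1.43 TPM, far below Nxf1 in both. Nutf2, the import factor of Ran, had 0 counts in replicate 1 and 34 in replicate 2, but in the index-based table it had 3.34 TPM in replicate 1 and 0.957 TPM in replicate 2, the opposite order. The annotation lists the genes of the pore proteins Nup42 and Nup58 under the older symbols Nupl2 and Nupl1, so that the rule did not take them. Nupl2 had 45 and 42 counts in replicates 1 and 2, and Nupl1 had 1 and 5.

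In genome position the members had little in common beyond length. The median span of the 47 genes was 48036 bases, against 23306.5 bases over the protein-coding genes. Over the 42 measured members the Spearman rho between span and level was -0.05, a description across genes of the same libraries. Exons of other genes overlapped 14 members, on the same strand in 7 of them.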

How the data were processed

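Per the file headers, the authors deposited for each library a gene-level table and 2 transcript tables, on mm10 with the GENCODE M21 annotation. No source used here names the aligner or the quantifiers. Expected counts, as the authors deposited them, are estimated counts that need not be whole; they were rounded. The deposited TPM was used as given. Its scale differs between tables: the index-based over the gene-level TPM had a median over members of 0.692 in replicate 1 and 0.322 in replicate 2, so levels were compared within a table. The deposited posterior SD was taken as a percent of the count.

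The members and lists were chosen with earlier results of these data known. Members were named by role (the 3 highest in TPM), by largest ratio (5), by lowest protein-coding share (10), and where counts were 0 in both libraries. TMM factors came from edgeR 4.0.16 in R 4.3.3, and 0.5 was added to counts for ratios. A lone library on each side leaves no residual degrees of freedom, so a binomial test took the place of a quasi-likelihood fit. Alternatives used DESeq2 1.42.0 size factors, library totals, count minimums, preset dispersions, the index-based table and each library alone. A kept intron is one that lies whole within an exon of another transcript, and a spliced one is cut by an intron that shares a splice site. Transcript sequences are those of GENCODE M21. Limits and intervals cover counting error only.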

Additional observations from a re-analysis of the deposited data

How the results depend on the processing

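The number of members above the median protein-coding gene was 27. It was 26 in the index-based table, 26 to 28 with 1 library alone, 27 with transcripts of 1000 or more bases, 17 beside genes with 100 or more counts and 41 with no minimum. Above the 90 percentile there were 2. That number was 1 in the index-based table, 1 beside genes with 100 or more counts, 6 with no minimum, 3 with longer transcripts and 2 to 3 with 1 library alone. The 0 members called between the libraries became 16 without a fold minimum and remained 0 under the 8 other alternatives. The median protein-coding share of TPM was 75.7% and had a range of 72.8% to 81.2% with 1 library alone; it was 61.9% in the index-based table (68.2% over protein-coding genes) and 93.9% by counts. Members under 50% numbered 6 (16.7%, against 16.9% of the protein-coding genes), and 13 in the index-based table (36.1%, against 27.8%). The share of Nxf1 transcripts that keep intron 10 had a mean of 80.8%, and it was 67.9% in the index-based table and 88.3% by counts. Levels are on another scale in the index-based table, where Nup54 ranked 2 among the members. Of the 42 ratios, 9 changed sign with library totals and 7 in the index-based table, Nup43 (-0.42) among the last. Among the named members the sign changed with library totals for Kpna3 (0.070), Kpna4 (0.045), Nup133 (0.015), Nup98 (0.0059), Xpo1 (0.044) and Xpo6 (0.050), and in the index-based table for Nup85 (-0.061) and Tpr (-0.040). None of these passed the call. The cause of these changes was not tested. No paired analysis was possible because there was 1 group. Members under 100 counts had no transcript shares.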
